A study of Mus musculus with 18 samples.

Results

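The 53 genes described here encode chains of collagens, laminins and integrins in single cells of the gastrulating mouse embryo. They are the names in the count files that follow the patterns of collagen chains (Col, a number, the letter a, a number), laminin chains (Lama, Lamb or Lamc and a digit) and integrin chains (Itga or Itgb with an optional letter or number), with a transcript in at least 10 kept cells. Of 76 such names with any transcript in the kept cells, 53 reached 10 cells: 28 of 41 collagens, 9 of 11 laminins and 16 of 24 integrins. The kept cells held transcripts of 22886 nuclear genes in all.

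The series title names the spatial and temporal order in which mesoderm and endoderm separate as its subject. All cells came from wild-type C57BL/6 embryos with no treatment: 6 libraries of cells picked by hand from singly dissociated embryos at embryonic day 6.75 (E6.75), freed of their extraembryonic part, and 12 libraries of flow-sorted cells from E7.5 embryos of pooled litters, which had been cut under the chorion and so kept extraembryonic mesoderm. Each library used 96 cell barcodes. E6.75 libraries were made with CEL-Seq2 and E7.5 libraries with its robotic form mCEL-Seq2, so stage, picking method and protocol cannot be told apart.

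Collagens and laminins are secreted trimers. Type IV collagen and laminins polymerise into the basement membrane under an epithelium, fibrillar collagens build the interstitial matrix, and integrins are paired α and β receptors that join cells to both. During gastrulation, epiblast cells leave their epithelium through the primitive streak and cross this basement membrane, while the visceral endoderm and parietal endoderm around the epiblast are known for secreting it.

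The chains of type IV collagen that were most abundant here, Col4a1 and Col4a2, are neighbours in opposite directions on chromosome 8. Their RefSeq promoter windows run from 250 bases before to 50 bases after an annotated start. They are shown because both genes rose between stages, though they did not move together in every comparison that follows. Windows of 37 of the 53 members were matched by symbol in RefSeq (42 windows, GRCm38.p6). Capitals mark GGGCGG (the GC box) and CCAAT, searched on both strands, so that CCGCCC and ATTGG are the same motifs on the other strand.
Col4a1 promoter, chr8:11312777-11313076, minus strand: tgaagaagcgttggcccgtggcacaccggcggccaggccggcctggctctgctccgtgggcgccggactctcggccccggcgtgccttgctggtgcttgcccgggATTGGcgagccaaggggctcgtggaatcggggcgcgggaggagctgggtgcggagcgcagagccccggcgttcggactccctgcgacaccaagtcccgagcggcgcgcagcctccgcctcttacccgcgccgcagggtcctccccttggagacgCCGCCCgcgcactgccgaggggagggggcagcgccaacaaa
Col4a2 promoter, chr8:11312555-11312854, plus strand: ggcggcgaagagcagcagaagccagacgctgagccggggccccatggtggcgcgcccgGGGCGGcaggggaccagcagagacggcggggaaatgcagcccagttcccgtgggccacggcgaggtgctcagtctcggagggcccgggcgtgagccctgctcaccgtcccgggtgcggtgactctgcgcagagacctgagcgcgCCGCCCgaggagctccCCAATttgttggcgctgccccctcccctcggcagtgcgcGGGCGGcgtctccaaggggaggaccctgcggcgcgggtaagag
The annotated starts of both genes lie 21 bases apart, so the windows share 78 bases. The Col4a1 window held 1 GC box and 1 CCAAT motif, and the Col4a2 window held 3 and 1. A GC box was found in 35.7% and a CCAAT motif in 37.4% of 32851 promoter windows of the same length. These matches describe letters in a window, not binding sites.

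Cells with at least 2000 nuclear transcripts were kept: 543 of 576 at E6.75 (85 to 96 per library) and 429 of 1152 at E7.5 (15 to 71 in 11 libraries, 0 in replicate 5). Kept cells held 2.92e+06 to 5.49e+06 transcripts per E6.75 library and 488908 to 2.62e+06 per E7.5 library. Mitochondrial transcripts made up 13.7% to 18.6% of the counts at E6.75 and, at E7.5, 8.99% to 14.3%. Summed markers of epiblast and ectoderm had a median over libraries of 60.6 per 10000 transcripts at E6.75 and 29.2 at E7.5, and mesoderm markers 0.938 and 8.84. Libraries share barcode sequences by design, because barcodes name wells and not cells.

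Cells were sorted into gates by marker transcripts. The visceral endoderm gate held cells with at least 20 transcripts of Ttr, Apoa1 and Spink1 together per 10000. Among the other cells, the Mesp1 gate (a mesoderm transcription factor) had a Mesp1 but no Foxa2 transcript, the Foxa2 gate (a factor of endoderm and axial mesoderm) the reverse, and the Sox2 gate (a factor of epiblast and neural ectoderm) had Sox2 and neither of them. At E6.75 there were 39 visceral endoderm, 29 Mesp1, 82 Foxa2 and 270 Sox2 gate cells, and 102 cells with none of these markers. At E7.5 there were 2, 125, 48 and 129, and 113 with none. The E6.75 Mesp1 and Foxa2 gates were not free of the epiblast factor, since 75.9% and 90.2% of their cells also held a Sox2 transcript, against 25.6% and 56.3% at E7.5.

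Levels are given as transcripts per 10000 nuclear transcripts of a library's kept cells. Both protocols count 1 tag near the 3′ end of each molecule, so levels were not divided by gene length. At E6.75 the summed collagens had a median of 2.38 per 10000 over 6 libraries (1.54 to 2.46), laminins 1.70 (1.40 to 2.00) and integrins 2.50 (2.09 to 2.59). At E7.5 the collagens stood at 3.35 (2.63 to 4.57, 11 libraries), laminins at 1.91 (1.39 to 2.82) and integrins at 2.66 (1.82 to 3.62). The integrin Itgb1, the β chain shared by most laminin and collagen receptors, had the most molecules of all members, 3265 at E6.75 and 2530 at E7.5. Col18a1, a basement membrane collagen that carries the endostatin domain, led the collagens at E6.75 with 1.10 ± 0.139 per 10000 (mean ± SD, n = 6), ahead of Col4a1 at 0.412 ± 0.113. At E7.5 Col4a1, at 0.985 ± 0.251 (n = 11), and Col18a1, at 0.738 ± 0.281, were within their spread of each other. Lamb1, the β chain common to early laminins, led the laminins at both stages.

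**Figure D1:**
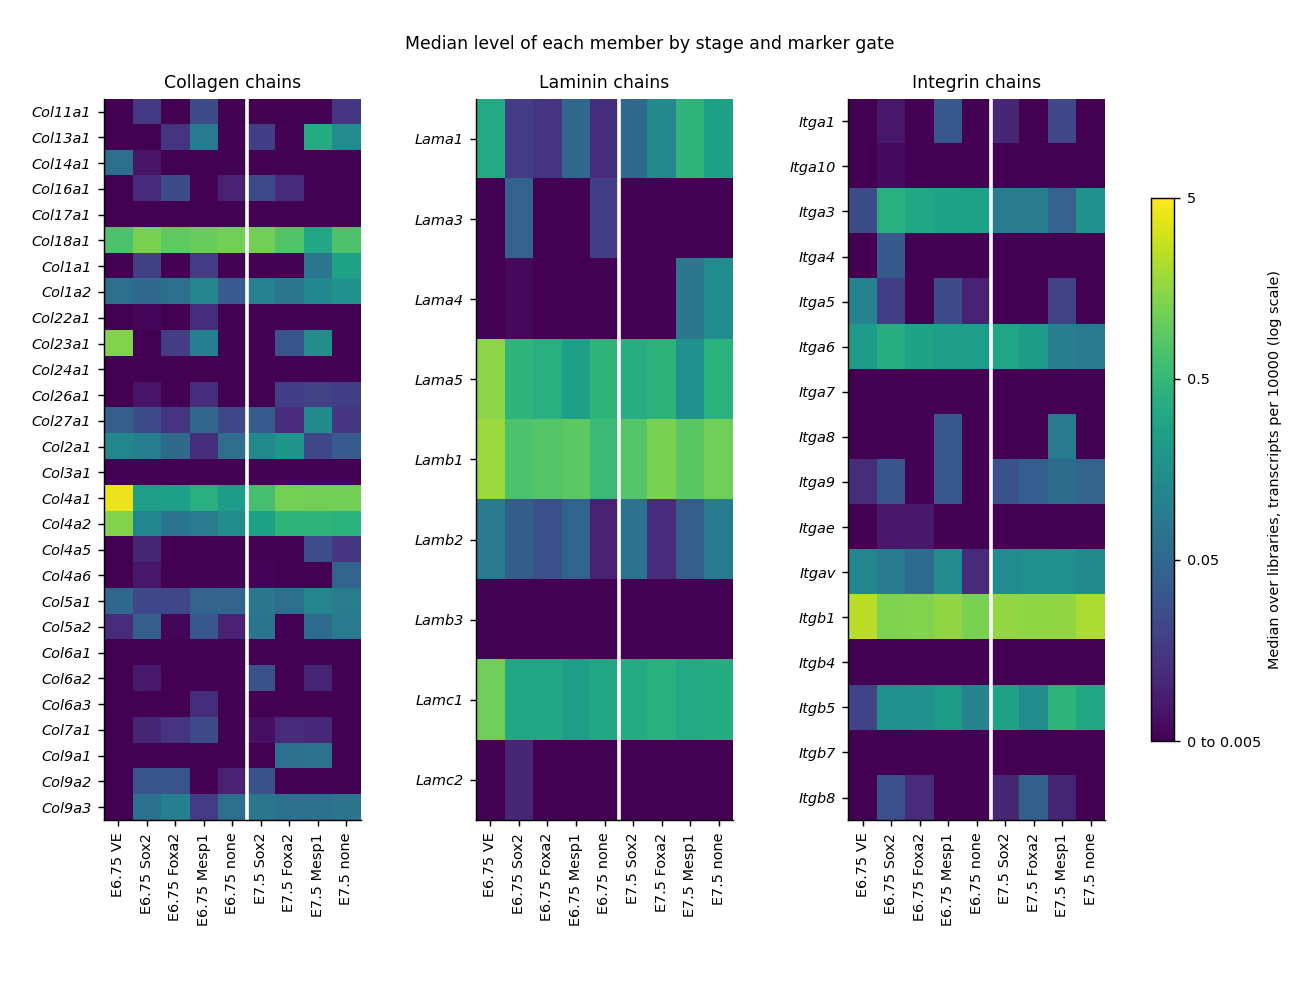
Median level over libraries of each of the 53 members (rows) in each marker gate at E6.75 and E7.5 (columns), in transcripts per 10000 on a log colour scale whose darkest step covers 0 to 0.005. Itgb1, Lamb1, Col18a1 and Col4a1 had a median above 0 in every column, and the E6.75 visceral endoderm gate (VE) had higher medians of Col4a1 (4.11) and Col23a1 (1.34) than the other E6.75 columns.

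Between stages, 7 of 11 tested collagen chains rose and 1, Col18a1, fell, and the laminin-binding integrin chains Itga3 and Itga6 fell. Of the 53 members, 22 had enough counts to be tested over the libraries, and 15 of these passed limma's test at an adjusted p of 0.05: 11 rose and 4 fell from E6.75 to E7.5. Over all 9998 genes tested, 42.3% passed, 20.5% rose and 21.8% fell, and the median log2 change was 0.00 against 0.82 over the 22 members. Among the other families, 1 of 5 tested laminins rose and 1 fell, and 3 of 6 integrins rose and 2 fell. The filter on low counts shaped these numbers: 7 of the 22 (Col13a1, Col1a1, Col27a1, Col5a1, Itga9, Lama1 and Lamb2) reached its level in E7.5 libraries only, which largely fixed their direction, and 6 of them are among the 11 that rose. Of the other 15, 9 passed, 5 higher and 4 lower, with a median log2 change of 0.26. Among those 5, Col1a2 reached the level in 2 of 6 E6.75 libraries and Itgav in 4, against 11 of 11 at E7.5. The filter needed 6 libraries, so both entered through E7.5 as well. The counts are therefore a description, and the stage changes of the 7, Col1a2 and Itgav are given without a p-value. In sums over cells, fewer cells of a type and less RNA per cell cannot be told apart. The p-values measure the spread between libraries, and the labels do not say which libraries shared embryos.

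Among basement membrane collagens, Col4a1 stood at 0.291, 0.391 and 0.571 per 10000 at E6.75 (lowest, median and highest library) and, at E7.5, at 0.528, 1.04 and 1.34. Col4a2 stood at 0.0719, 0.197 and 0.234, and at 0.273, 0.312 and 0.764. The stages did not overlap for Col4a2, and for Col4a1 a single E7.5 library lay below the highest E6.75 library. Both chains rose by a log2 change of 1.17 (SE 0.17 for Col4a1 and 0.24 for Col4a2; limma adjusted p = 1.67e-05 and 0.000604), which is 2.25-fold and 2.26-fold. With visceral endoderm gate cells left out (39 at E6.75 and 2 at E7.5), the changes were 1.69 and 1.72, and 19 of 23 tested members passed. The 19 hold the 7 members that reached the filter's level in E7.5 libraries only, and Col23a1, so that count is a description. With those cells kept, 42.3% of all 9998 genes tested passed, and the share without them is not given here. Summed parietal endoderm markers moved with stage too, from 2.35 to 4.39 per 10000 at E6.75 to 4.41 to 9.84 at E7.5. Of the 9 on the list, 8 were detected at E6.75 (Thbd at 0) and 9 at E7.5. The 5 tested did not move together: Gata6, Fst and Sox17 were higher at E7.5 and Srgn was lower. A list of definitive endoderm and axial markers also holds Sox17, so the sum is not particular to parietal endoderm. The part of these markers in the result was not tested. Col18a1 went the other way, from 0.843, 1.13 and 1.23 to 0.184, 0.771 and 1.10 per 10000. Its stages overlapped, and it fell by 0.69 (SE 0.20, limma adjusted p = 0.0112). The call was lost with limma-trend, an alternative chosen after seeing the data (adjusted p = 0.0755), when the E6.75 libraries numbered 1_10 and 1_11 were left out (0.056) and in thinned cells (0.0801).

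Of the fibrillar collagens, Col5a1, which helps start collagen fibrils, stood at 0.024, 0.0343 and 0.0427 per 10000 at E6.75 and at 0.0482, 0.127 and 0.161 at E7.5. The stages did not overlap, and it stood 3.17-fold higher at E7.5 (log2 change 1.66, SE 0.23). The type I collagen chain Col1a1 was nearly silent at E6.75, at 0.00331, 0.0124 and 0.0233 per 10000, and ran from 0 to 0.904 at E7.5 with a median of 0.0671. Its E7.5 libraries were far apart, with 0.904 in replicate 1, 0.371 in replicate 10 and 0 in replicate 9. Its log2 change was 3.17 (SE 0.86), and its partner Col1a2 stood higher at E7.5 by 1.33 (SE 0.29). Col27a1, a fibrillar collagen of cartilage, had a log2 change of 1.10 (SE 0.35).

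The transmembrane collagen Col13a1 had the largest change among the members tested between stages, from 0.00275, 0.00502 and 0.0466 per 10000 to 0.0471, 0.127 and 0.368. The highest E6.75 library and the lowest E7.5 library nearly met. The change was 10.3-fold (log2 3.37, SE 0.69). The other transmembrane collagen with enough counts, Col23a1, did not pass limma's test (log2 change 0.82, SE 0.38, adjusted p = 0.0907). Without visceral endoderm gate cells its change was 3.23 (SE 0.60). In the gate comparison, the cells outside that gate reached the filter's level for Col23a1 in 0 of 6 E6.75 libraries. That largely fixed its direction, so the value of 3.23 is given without a p-value.

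The laminin α chains moved apart. Lama1, the α chain of the first embryonic laminin, stood at 0.0103, 0.0296 and 0.0441 per 10000 at E6.75 and at 0.0765, 0.252 and 0.432 at E7.5, with no overlap. It stood 7.72-fold higher at E7.5 (log2 change 2.95, SE 0.47). Lama5, the more broadly expressed α chain, stood at 0.346, 0.504 and 0.525 at E6.75 and at 0.0818, 0.351 and 0.444 at E7.5, and it fell by 0.67 (SE 0.17, limma adjusted p = 0.00302; 0.0548 with limma-trend). Their partners did not pass: Lamb1 had a log2 change of 0.22 (SE 0.12, adjusted p = 0.168) and Lamc1, the γ chain of the same trimers, one of 0.07 (SE 0.13, adjusted p = 0.691). The ratio of Lama1 to Lama5 transcripts within a library was 0.03 to 0.08 at E6.75 and, at E7.5, 0.21 to 5.25. Lamc1 per Lamb1, by contrast, had medians of 0.44 and 0.36, with overlapping ranges.

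Among integrins, Itga3, an α chain of laminin receptors, stood at 0.284, 0.328 and 0.462 per 10000 at E6.75 and at 0.0528, 0.0816 and 0.176 at E7.5. No library of one stage reached the range of the other, and it fell 3.25-fold (log2 change -1.70, SE 0.19, limma adjusted p = 4.28e-07). Itga6, another laminin-binding α chain, went from 0.298, 0.340 and 0.378 to 0.0614, 0.188 and 0.313 and fell by 1.12 (SE 0.19, adjusted p = 6.7e-05). Higher at E7.5 were Itgb5 (log2 change 0.91, SE 0.14) and Itgav (0.82, SE 0.19), whose chains pair into a vitronectin receptor, and Itga9 (1.44, SE 0.41), an α chain for tenascin and other ligands. Itgb1 itself stood at 1.17 to 1.55 per 10000 at E6.75 and, at E7.5, 1.21 to 2.39 and did not pass (log2 change 0.26, SE 0.12, adjusted p = 0.0772). Itga3 per Itgb1 was 0.22 to 0.34 at E6.75 and, at E7.5, 0.02 to 0.11.

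**Figure D2:**
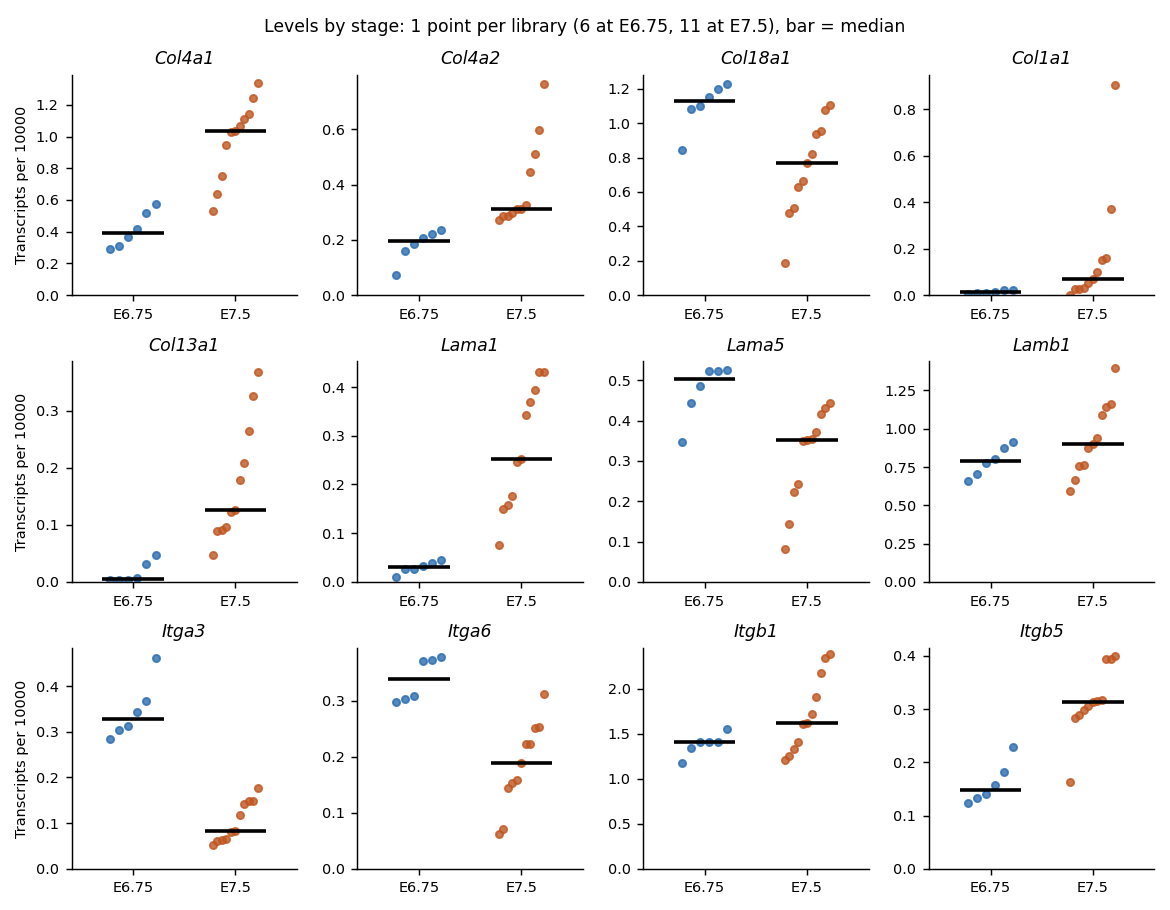
Level of 12 members, in transcripts per 10000, in each library at E6.75 (6 points) and E7.5 (11 points) with the median as a bar. Lama1 and Itga3 show no overlap between stages (Lama1 0.0441 at most at E6.75 and 0.0765 at least at E7.5), while the ranges of Itgb1 and Lamb1 overlap.

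Of 23 genes for making collagen, 15 were tested, 11 rose and 0 fell, with a median log2 change of 0.83; P4ha2, a prolyl hydroxylase subunit, rose by 1.31 (SE 0.22) and Plod1, a lysyl hydroxylase, by 1.29 (SE 0.21). Of 21 matrix partners, 11 were tested and 6 rose, among them fibronectin (Fn1, log2 change 2.75, SE 0.35), versican (Vcan, 2.95, SE 0.44) and fibrillin (Fbn2, 2.99, SE 0.43). Of 23 integrin adhesion genes, 19 were tested, 6 rose and 3 fell, and 4 of 8 tested matrix protease genes rose. The shares of adhesion and protease genes that passed lay near the 42.3% of all genes tested. Whether a gene reached the filter's level in 1 group only was checked for members alone. It is not known for these pathway genes, here or in the comparisons below.

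The other 31 members were too sparse to test between stages. Their median levels reached at most 0.0369 per 10000 at E6.75 (Col5a2) and 0.0528 at E7.5 (Lama4), and 9 of them had a median of 0 at E7.5. Thinning every cell to 2000 transcripts left 4 members to test, of which Col4a1 passed (log2 change 0.89, limma adjusted p = 0.0174), so depth set how many of the rarer members could be followed.

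In E6.75 embryos, the visceral endoderm gate held the highest levels of type IV collagen and of a transmembrane collagen. The gate's 39 cells were set against all other cells of the same 6 libraries, with the library as a block. Replicates 1_10, 1_11 and 2_12 had 3 gate cells each, 2_14 had 6, 2_13 had 8 and 2_9 had 16. Of 14 members tested, 8 passed limma's test, 7 higher and 1 lower in the gate, against 34.8% of 9144 genes (18.8% higher, 16% lower). The members' median log2 difference was 0.87 and that of all genes tested was -0.01. All 3 tested laminins, 3 of 6 collagens and 1 of 5 integrins were higher. The 14 visceral endoderm markers summed to 91.1 to 133 per 10000 in the gate and 1.36 to 2.31 in the other cells, and all 14 were detected. That list holds Ttr, Apoa1 and Spink1, which define the gate, so this contrast is partly fixed by the rule.

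Col4a1 stood at 2.98, 4.11 and 5.19 per 10000 in the gate (lowest, median and highest of 6 libraries) and at 0.229, 0.248 and 0.341 in the other cells. Col4a2 stood at 1.25, 1.36 and 3.36 in the gate and at 0.0555, 0.111 and 0.170 outside it. Neither gene overlapped between gate and other cells in these libraries. The differences were 12.9-fold for Col4a1 (log2 3.69, SE 0.19, limma adjusted p = 6.88e-12) and 14.2-fold for Col4a2 (log2 3.82, SE 0.26, adjusted p = 5.28e-10). The gate's cells, 7.18% of kept E6.75 cells with 4.22% of their transcripts, held 36.4% of the 1009 Col4a1 molecules and 36.8% of the 432 Col4a2 molecules. All 10 E6.75 cells of highest Col4a1 level were gate cells.

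Col23a1 stood at 0.499, 1.34 and 2.04 per 10000 in the gate and at 0 to 0.0381 in the other cells. No library overlapped, and the fitted difference was 6.61 on the log2 scale. Col23a1 reached the filter's level in all 6 gate sums and in 0 of the other sums, so it entered through the group where it is high and the difference is a description with no test. Without it, 7 of 13 tested members passed. Replicate 1_11 had no Col23a1 transcript outside the gate, so the size depends on the offset of 0.5 counts, and it was 4.76 with gates at 2 transcripts and the visceral endoderm gate at 50 per 10000, changed together. The gate held 76.0% of the 146 Col23a1 molecules counted at E6.75. Lamc1, with medians of 1.11 in the gate and 0.299 outside, differed by 1.81 (SE 0.25), Lama5, with 1.50 and 0.462, by 1.54 (SE 0.24), and Lamb1, with 1.76 and 0.764, by 1.37 (SE 0.22). With those settings Lamb1 did not pass (log2 0.82, adjusted p = 0.161), and Itgb1 (log2 0.96) fell just short of the threshold.

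Lama1 did not pass the filter on low counts in this comparison. It ran from 0 to 0.471 per 10000 in the gate with a median of 0.332, and from 0.0104 to 0.0286 in the other cells, and 39.7% of its 73 molecules were in the gate. Itgb1 was higher in the gate, at 1.75, 2.45 and 3.93 per 10000 against 1.06, 1.36 and 1.50 (log2 0.89, SE 0.18, limma adjusted p = 0.000694). Itga3 went the other way, with 0, 0.0241 and 0.122 in the gate against 0.313, 0.335 and 0.469 (log2 -1.94, SE 0.33). Itga3 reached the filter's level in 2 of 6 gate sums and 6 of 6 other sums, so its difference is given without a p-value. Col18a1 (log2 -0.60, adjusted p = 0.0631) and Itgav (0.85, adjusted p = 0.064) did not pass. Parietal endoderm markers summed to 11.2 to 21.9 per 10000 in the gate and 2.22 to 3.84 outside; that list holds Sparc, Gata6 and Sox17, which visceral endoderm also expresses, while Thbd was at 0 in both. Their part in these differences was not tested.

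**Figure D3:**
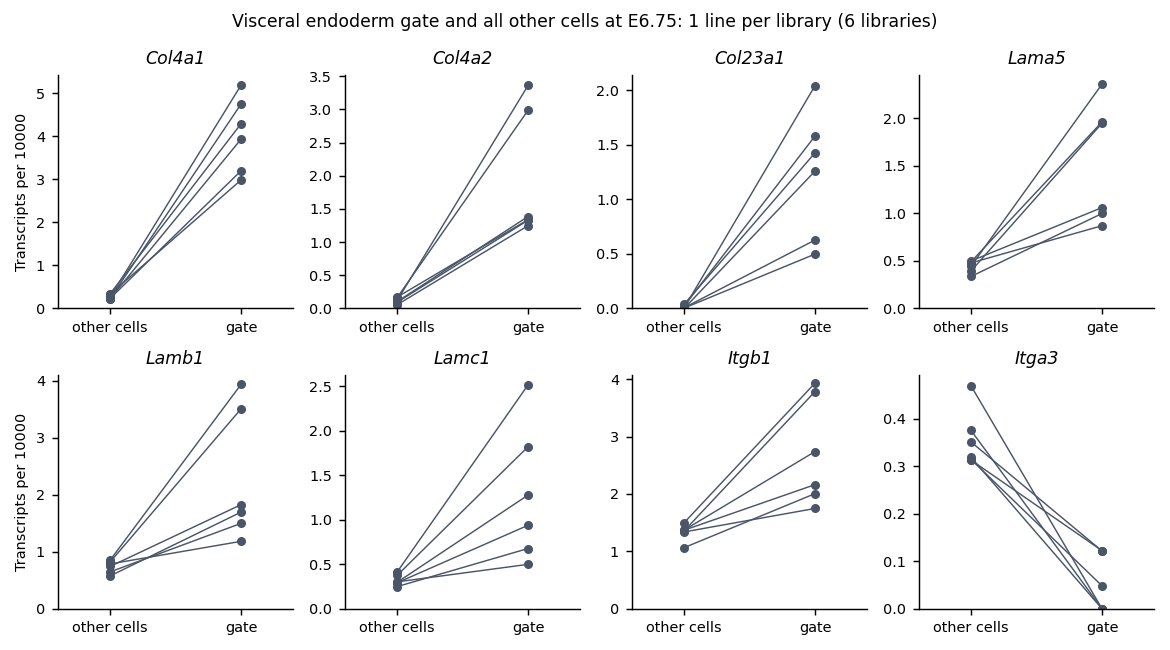
Level of 8 members, in transcripts per 10000, in all other cells and in the visceral endoderm gate of the same E6.75 library (1 line for each of 6 libraries). Of these, 7 passed the test, and Col23a1, which reached the filter's level in the gate alone, is drawn as a description. Itga3 reached that level in 2 of 6 gate sums and 6 of 6 other sums. Every line rises for the first 7 genes, and every line falls for Itga3, whose gate values lie between 0 and 0.122.

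The linker protein of basement membranes Nid1 (log2 4.52, SE 0.43) and the collagen-binding Sparc (2.36, SE 0.12) were also higher in the gate, 2 of 4 matrix partners that passed among 6 tested. Of 12 tested genes for making collagen, 8 were higher and 0 lower, with a median of 0.80 and with the collagen chaperone Serpinh1 at 2.16 (SE 0.23) and the prolyl hydroxylase subunit P4ha1 at 1.88 (SE 0.30). Of 19 tested adhesion genes, 9 were higher, led by the integrin activator Fermt1 (3.52, SE 0.38) and the laminin receptor tetraspanin Cd151 (2.10, SE 0.23), and the syndecan Sdc1 was lower. Among 7 tested protease genes, Mmp15 and Adam19 were higher and Mmp2 was lower. These counts stand against 34.8% of all 9144 genes tested that passed, 18.8% higher and 16% lower.

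At E7.5, Mesp1 gate cells held more type IV and transmembrane collagen and more Lama1 than Sox2 gate cells of the same libraries, and less Col18a1, Lama5, Itga3 and Itga6. Of 14 members tested in 10 libraries, 10 passed limma's test (6 higher and 4 lower in the Mesp1 gate), against 11.9% of 7664 genes (5.13% higher, 6.78% lower). The median log2 difference was 0.36 over the 14 members and -0.01 over all genes tested. Mesoderm markers summed to 9.60 to 21.7 per 10000 in the Mesp1 gate and 0.954 to 9.34 in the Sox2 gate, and epiblast and ectoderm markers to 7.94 to 24.5 and 38.8 to 67.5. These lists hold Mesp1 and Sox2, which define the gates, so both contrasts are partly fixed by the rule. Col13a1, Col23a1 and Lama1 reached the filter's level in Mesp1 gate sums and in 0 Sox2 gate sums, so their differences are given without a p-value. Of the other 11 members tested, 7 passed, 3 higher and 4 lower, with a median of 0.19. Among these, Itga6 reached the level in 7 of 10 Sox2 gate sums and 1 of 10 Mesp1 gate sums at E7.5. Itga3 reached it in 2 and 0. The filter thus leaned to the gate where both are high, and their differences are also given without a p-value.

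Col13a1 stood at 0.154, 0.354 and 0.529 per 10000 in the Mesp1 gate of 11 libraries and at 0, 0.0179 and 0.0681 in the Sox2 gate of 10. The gates did not overlap, and the difference was 8.73-fold (log2 3.13, SE 0.42). The Mesp1 gate held 71.8% of the 220 Col13a1 molecules at E7.5 on 35.8% of the transcripts. Col23a1 stood at 0.0575, 0.150 and 0.375 in the Mesp1 gate and at 0 to 0.148 in the Sox2 gate with a median of 0 (log2 1.98, SE 0.41). At E6.75 the visceral endoderm gate had the highest median of this gene among the gates.

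Lama1 stood at 0.110, 0.456 and 1.35 per 10000 in the Mesp1 gate and at 0, 0.0515 and 0.137 in the Sox2 gate. The ranges met only at their ends, and the difference was 5.19-fold (log2 2.38, SE 0.33). Col4a1, at 0.499, 1.11 and 1.81 against 0.157, 0.660 and 0.949, was higher by 0.90 (SE 0.21, limma adjusted p = 0.00414). Col4a2, with medians of 0.449 and 0.251, was higher by 0.91 (SE 0.25, adjusted p = 0.00814). Both type IV chains overlapped between the gates. Itgb5 was higher by 0.63 (SE 0.21, adjusted p = 0.0371) and did not pass without the replicate block (log2 0.55, adjusted p = 0.053), in cells with at least 5000 transcripts (0.59, 0.0646), with no filter on low counts (0.63, 0.145), or with gates at 2 transcripts and the visceral endoderm gate at 50 per 10000, changed together (0.41, 0.302).

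The lower members were led by Itga6, at 0, 0.0959 and 0.252 per 10000 in the Mesp1 gate and 0.203, 0.287 and 0.788 in the Sox2 gate. Itga6 overlapped at its ends and differed by -1.54 (SE 0.30). Itga3 differed by -1.49 (SE 0.41), with gate medians of 0.0440 and 0.0917. Col18a1 stood at 0.150, 0.309 and 0.576 in the Mesp1 gate and at 0.864, 1.16 and 1.43 in the Sox2 gate, without overlap (log2 -1.49, SE 0.18, limma adjusted p = 1.58e-08). Lama5 differed by -0.70 (SE 0.24, adjusted p = 0.039), and not past the threshold with limma-trend (log2 -0.63, adjusted p = 0.107), a setting chosen after seeing the data, or with no filter on low counts (log2 -0.69, adjusted p = 0.141). Lamb1, Lamc1, Itgav and Itgb1 did not pass; the gate medians of Itgb1 were 1.59 and 1.62.

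Over all 7664 genes tested, 11.9% passed, 5.13% higher and 6.78% lower in the Mesp1 gate. Among pathway genes, 4 of 7 tested matrix partners were higher in the Mesp1 gate and 1 (Frem2, a basement membrane protein) was lower. Fn1 stood apart with a log2 difference of 3.23 (SE 0.32), at 6.59 to 14.8 per 10000 against 0.31 to 2.38. Serpinh1 (1.04, SE 0.15) and P4ha1 (0.71, SE 0.22) were the 2 of 11 tested genes for making collagen that passed. Adam19 (2.43, SE 0.32), the membrane protease Mmp14 (1.55, SE 0.20) and the inhibitor Timp3 (1.04, SE 0.24) were 3 of 6 tested protease genes, all 3 higher, and 2 of 18 tested adhesion genes were higher and 3 lower.

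The same comparison at E6.75 rested on 3 libraries with 15, 11 and 3 Mesp1 gate cells. Of 14 members tested, 2 passed, Col13a1 and Col23a1, both higher, against 3.72% of 7664 genes (2.74% higher, 0.979% lower). Col13a1 stood at 0.0859, 0.297 and 0 per 10000 in the Mesp1 gate of replicates 2_13, 2_14 and 2_9 and at 0 to 0.0106 in the Sox2 gate of 6 libraries. Col23a1 stood at 0.160, 0.0991 and 0 in the same replicates and again at 0 to 0.0106. Replicate 2_9, with 3 gate cells, had neither transcript. The fitted differences were 4.44 for Col13a1 (SE 0.86) and 3.43 for Col23a1 (SE 0.77). Both are among the 3 members that reached the filter's level in the Mesp1 gate alone, and they entered through the E7.5 sums. In the 3 E6.75 Mesp1 gate sums, Col13a1 reached it in 1 and Col23a1 in 0. Of the other 11 members 0 passed, so the count of 2 is a description. Without replicate 2_14 neither passed (log2 2.77 and 3.13, adjusted p = 0.219 and 0.0791), and without replicate 2_13 only Col13a1 did (log2 5.71, against an adjusted p of 0.128 for Col23a1). Fn1 (3.07, SE 0.43), Vcan (3.27, SE 0.80) and Fbn2 (2.50, SE 0.60) were higher as well, 3 of 7 tested matrix partners. The type IV chains did not pass, with differences of 0.64 for Col4a1 (SE 0.33) and -0.05 for Col4a2 (SE 0.45).

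With gates at 2 transcripts and the visceral endoderm gate at 50 per 10000, changed together, 6 of 14 members passed at E6.75, adding Col18a1 (log2 -1.62), Itga3 (-2.35) and Itga6 (-1.88), lower in the Mesp1 gate, and Itgb1 (0.50), higher. The share of all genes tested that passed under those settings is not given here, so this count is a description. The change of the Mesp1 against Sox2 difference from E6.75 to E7.5 was tested as an interaction. By limma, 0 of 14 members passed, against 0.835% of 7664 genes; 2 had an unadjusted p under 0.05, Col18a1 and Itga6, and limma-trend gave 0. Col18a1 was nearest, with a change of -0.90 (SE 0.26, adjusted p = 0.0713), and without E6.75 replicate 2_14 it passed (-1.25, adjusted p = 0.00427). Whether Col18a1 passed thus depended on a single library.

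For the Foxa2 gate against the Sox2 gate, no member passed limma's test at either stage. At E6.75 it was 0 of 10 members in 6 libraries, against 1% of 6989 genes, with 2 at an unadjusted p under 0.05. At E7.5 it was 0 of 10 in 8 libraries, against 3.06% (2.22% higher, 0.844% lower), with 4 at an unadjusted p under 0.05. Limma-trend gave 0 at both. The Foxa2 gate shares its Sox2 gate sums with the Mesp1 comparison, so the differences are set side by side and not counted as independent.

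Nearest to the threshold at E7.5 were both type IV chains. Col4a1 ran from 0 to 1.75 per 10000 in the Foxa2 gate with a median of 1.18 (log2 1.11, SE 0.32, adjusted p = 0.074), where the Mesp1 gate had a difference of 0.90. Col4a2 had a median of 0.451 (log2 0.95, SE 0.29, adjusted p = 0.0539), where the Mesp1 gate had 0.91. In cells with at least 5000 transcripts Col4a1 passed (log2 1.15, adjusted p = 0.0216). Visceral endoderm markers summed to 2.97 to 8.12 per 10000 in this gate and 0.788 to 7.53 in the Sox2 gate, with Apoa2, Apoa4, Apob and Amn at 0 among 14; their part was not tested. Definitive endoderm and axial markers summed to 3.08 to 13.9 and 0.531 to 6.05; that list holds Foxa2, which defines the gate.

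At E6.75 Col4a1 and Col4a2 had Foxa2 against Sox2 differences of -0.11 (SE 0.33) and -0.65 (SE 0.34). The change of that difference to E7.5 was 1.60 for Col4a2 (SE 0.45, limma adjusted p = 0.0674) and 1.22 for Col4a1 (SE 0.45, adjusted p = 0.318), and 0 of 10 members passed, against 0.83% of 6989 genes, with 2 at an unadjusted p under 0.05 and 0 by limma-trend. The E6.75 value of Col4a2 turned from -0.65 to above 0, at 1.50 (SE 0.35, adjusted p = 0.0158), with gates at 2 transcripts and the visceral endoderm threshold at 50, a setting that lets cells with 20 to 50 visceral endoderm transcripts per 10000 into the other gates. Itga6, the member nearest the threshold at E6.75 (-0.66, SE 0.18, adjusted p = 0.0544), passed in cells with at least 5000 transcripts (-0.65, adjusted p = 0.0488). Of the other genes, Serpinh1 was higher in the E7.5 Foxa2 gate (0.93, SE 0.19, adjusted p = 0.00195), and so were the talin Tln2 (1.39, SE 0.25) and Mmp14 (0.92, SE 0.27).

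Set directly against each other in 8 E7.5 libraries, the Mesp1 gate held more transmembrane collagen and Lama1, and the Foxa2 gate more Lama5, Itga6 and Col18a1, while type IV collagen did not pass the test. Of 14 members tested, 7 passed limma's test, 4 higher and 3 lower in the Mesp1 gate, against 8.8% of 7629 genes (2.5% higher, 6.29% lower). The members' median log2 difference was -0.16 and that of all genes -0.05. Col13a1 (1.99, SE 0.48), Lama1 (1.45, SE 0.30) and Itgb5 (1.21, SE 0.33) were higher. So was Col23a1 (1.79), which reached the filter's level in the Mesp1 gate alone. Of the other 13 members, 6 passed, 3 higher and 3 lower. In the 8 libraries, Itgb5 reached the level in 8 Mesp1 gate sums and 1 Foxa2 gate sum, Lama1 in 6 and 2. Col13a1 reached it in 5 and 1, and Itga6 in 0 and 3. The filter thus leaned to the gate where each is high, and both counts are a description. Itga6 (-1.63, SE 0.40), Lama5 (-1.40, SE 0.29) and Col18a1 (-0.80, SE 0.24) were lower. Lama5 stood at 0.0652, 0.163 and 0.461 per 10000 in the Mesp1 gate and at 0.269, 0.438 and 0.652 in the Foxa2 gate, while Lama1 stood at medians of 0.456 and 0.129. Col4a1 had a difference of -0.09 (SE 0.18, adjusted p = 0.867) and Col4a2 of -0.24 (SE 0.24). With gates at 2 transcripts and the visceral endoderm gate at 50 per 10000, changed together, 3 of 13 tested members passed, and Lama1 (log2 1.23, adjusted p = 0.133), Itgb5 (0.76, 0.293) and Col18a1 (-0.51, 0.389) did not. The share of all genes tested that passed under those settings is not given here, so this count is a description. Without the replicate block Lama1 (adjusted p = 0.181) and Col18a1 (0.115) did not pass, and in cells with at least 5000 transcripts Itga6 (0.0618) and Col18a1 (0.0779) did not.

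**Figure D4:**
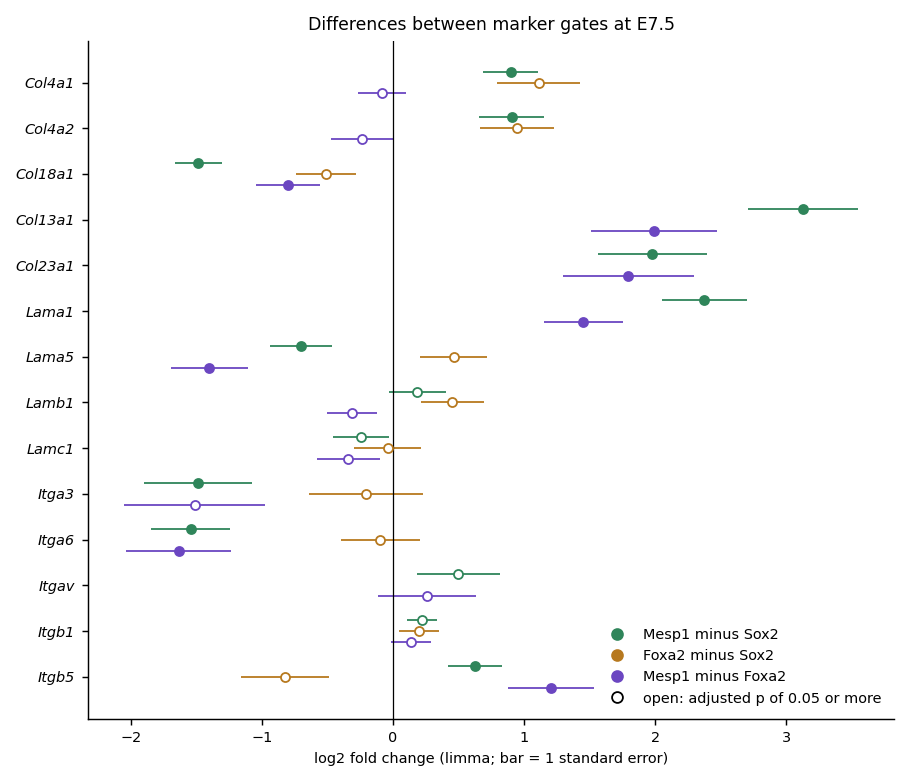
Log2 fold change of each tested member between gates at E7.5 by limma, for Mesp1 minus Sox2, Foxa2 minus Sox2 and Mesp1 minus Foxa2, with 1 standard error; filled points passed an adjusted p of 0.05. Col13a1, Col23a1 and Lama1 lie to the right where the Mesp1 gate is higher (3.13, 1.98 and 2.38 against Sox2). Itga6 and Col18a1 lie to the left, and none of the Foxa2 minus Sox2 points is filled. Against Sox2, Col13a1, Col23a1 and Lama1 reached the filter's level in the Mesp1 gate alone, as did Col23a1 against Foxa2, so those points are a description. At E7.5, Itga3 and Itga6 against Sox2 reached it mainly in the gate where they are higher. So did Col13a1, Lama1, Itgb5 and Itga6 in Mesp1 minus Foxa2.

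Where each member's molecules were counted at E7.5 differed widely between members. The Mesp1 gate, with 35.8% of all transcripts, held 70.8% of the 65 molecules of Itga8, an integrin α chain of mesenchyme, 59.8% of the 383 of Lama1, 58.5% of the 65 of the fibril-associated collagen chain Col9a1 and 55.5% of the 110 of Col27a1. The Sox2 gate, with 30.6% of transcripts, held 52.7% of the Itga6, 49.1% of the Col18a1, 43.8% of the Col2a1 and 43.5% of the Itga3 molecules. The Foxa2 gate, with 13.2%, held 27.7% of the 130 molecules of Col2a1, a cartilage and notochord collagen, and 21.0% of the 448 of Lama5. These are shares of molecules pooled over libraries and carry no test.

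E7.5 cells with none of the 3 lineage markers, with 16.8% of the transcripts, held large shares of another set of members. They held 69.1% of the 317 Col1a1 molecules, 65.1% of those of Lama4, a laminin α chain of mesenchyme and vessels, 77.0% of the 87 of Itga4, a fibronectin-binding α chain, and 48.5% of the 266 of Col1a2. Few cells and libraries carried these values. The 43 highest cells of 429 held 95.6% of the Col1a1 molecules, a single cell held 17.7%, and replicate 1 held 59.9%. For Itga4 a single cell held 31.0% and replicate 1 held 71.3%. In these cells mesoderm markers summed to 2.34 to 17.6 per 10000 with Mesp1 at 0, and blood and endothelial markers to 0 to 7.44 with Hba-x at 0 among 8; whether such cells carried the molecules was not tested.

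**Figure D5:**
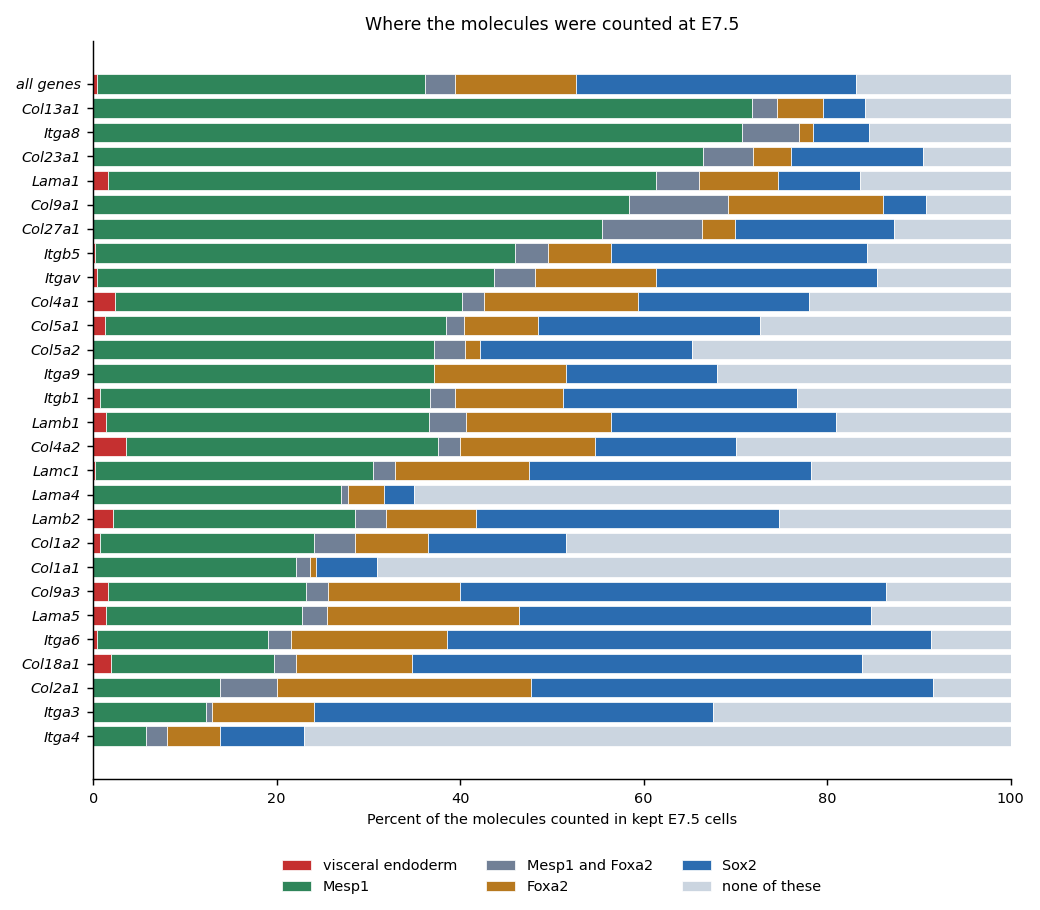
Percent of each member's molecules counted in each marker gate at E7.5, for members with at least 60 molecules, with the same split of all genes' transcripts in the top bar. Col13a1 and Itga8 have the largest Mesp1 gate shares drawn (71.8% and 70.8%), and Itga4, Col1a1 and Lama4 the largest shares in cells with none of the markers (77.0%, 69.1% and 65.1%).

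Chains that assemble with each other kept similar ratios in some pairs and not in others. Col4a2 per Col4a1 had medians of 0.45 at E6.75 (0.25 to 0.72 over 6 libraries) and 0.43 at E7.5 (0.25 to 0.57 over 11), and 0.43 in the visceral endoderm gate (0.26 to 0.76). These ranges overlap, while the levels of both genes did not overlap between that gate and the other cells. Both transcripts were seen together in 59.0% of 39 visceral endoderm gate cells, 57.6% of 125 E7.5 Mesp1 gate cells and 25.6% of 270 E6.75 Sox2 gate cells. The transcripts of Lama5, Lamb1 and Lamc1 were found together in 49.6% of E6.75 Sox2 gate cells and in 26.4% of E7.5 Mesp1 gate cells, and those of Lama1, Lamb1 and Lamc1 in 4.81% and 30.4%. Itga6 and Itgb1 were found together in 66.3% and 18.4% of the same cells. These shares follow both level and depth, with median depths of 47268 transcripts in the E6.75 Sox2 gate, 39958 in the E7.5 Mesp1 gate and 23368 in the visceral endoderm gate. Thinned to 2000 transcripts per cell, Itga6 was seen in 7.41% of E6.75 Sox2 gate cells and 0.8% of E7.5 Mesp1 gate cells, and Col4a1 in 51.3% of visceral endoderm gate cells and 4.81% of E6.75 Sox2 gate cells.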

How the data were processed

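For every library the authors deposited a gene by barcode table of expected counts, in which each nonzero value equalled a whole number of molecular identifiers corrected for collisions among 4096 sequences, to within 4.09e-12. Demultiplexing used bcl2fastq 2.17.1.14 and alignment BWA 0.6.2-r126, per the submitters' processing notes; the build, annotation, counter and use of strand were not given in the sources used here. Cells were kept at 2000 nuclear transcripts, without a doublet caller, and libraries at 10 cells (3 per gate). Rounded values were summed per library and gate and compared with limma 3.58.1 in R 4.3.3 (voom, 0.5-count offset, median-of-ratios scaling, robust moderated variances, Benjamini-Hochberg adjustment over all genes tested, threshold 0.05). Genes entered with 15 counts in all and the equivalent of 10 counts in as many sums as the smallest group held. Those sums could come from any gate or stage in the fit. Gate comparisons had the library as a block, since both gates came from the same libraries. A count-model test had been planned; the tables could not be machine-checked as counts, so limma took its place. The script was tested on simulated data. Members, gene lists and rules for naming genes were chosen with earlier results of these data known: members that passed (at most 12 per comparison), the 3 highest per family and partner chains are named.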

Additional observations from a re-analysis of the deposited data

Results flagged for a closer look

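In 40 groups of 4 to 10 libraries, the highest or lowest library was compared with its nearest neighbour by Dixon's test, and 5 groups had a library apart; chance alone flags about 1 in 20 groups. In the E7.5 Sox2 gate, Col23a1 stood at 0.148 per 10000 in replicate 3 (nearest library 0.0424) and Itga6 at 0.788 in replicate 11 (nearest 0.393). In the E7.5 Foxa2 gate, Col13a1 stood at 0.290 in replicate 1 (nearest 0.0473), Col23a1 at 0.223 in replicate 3 (nearest 0.0538) and Itga6 at 0.849 in replicate 6 (nearest 0.429).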

How the results depend on the processing

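Over 310 values of 42 single-gene results under the alternatives, 286 kept direction and side of the threshold, 24 of 12 results kept direction and lost the threshold, and 0 reversed. The cause of these losses was not tested. The 286 overstates how far the results were put to the test. The 310 values include fits of E7.5 gate differences without an E6.75 library, which leave the E7.5 sums as they were. They also include members whose direction the filter largely fixed. Members too sparse to test under an alternative gave no value and do not count as losses. Of the members called between stages, thinning to 2000 transcripts left values for Col4a1 and Col18a1 only.

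Counts of calls moved as follows. Except for thinned cells, the number of genes tested under each alternative is not given here. The counts therefore carry no share and are a description. Without a filter on low counts, members called were 28 (E7.5 against E6.75), 43 (visceral endoderm gate), 4 (Mesp1 against Sox2, E6.75), 2 (Foxa2 against Sox2, E7.5), 5 (the same, E6.75) and 11 (Mesp1 against Foxa2), of 53 tested. Of the 43, 41 were higher, and 16 of these had no molecule in the gate, where the value came from the 0.5-count offset in shallow sums, so that count is no support. Genes called were 12818, 14235, 447, 405, 3308 and 1337, and 147 and 23 for the changes of the Mesp1 and Foxa2 differences between stages. Thinned to 2000 transcripts, 1 member and 662 of 2848 genes were called between stages. With gates at 2 transcripts and the visceral endoderm gate at 50 per 10000, changed together, members called were 6 and 2 (Mesp1 and Foxa2 against Sox2, E6.75) and 3 (Mesp1 against Foxa2), and genes called 1378 (visceral endoderm gate), 729, 298 and 16 (change of the Foxa2 difference). With limma-trend, an alternative chosen after seeing the data, 1 member and 39 genes (Mesp1 against Sox2, E6.75), 2 genes (Foxa2, E6.75), and 1 and 7 genes (changes of the Mesp1 and Foxa2 differences) were called. In cells with at least 5000 transcripts, 1 member was called for Foxa2 against Sox2 at each stage.

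Without the replicate block, genes called were 129 (Foxa2 against Sox2, E7.5), 421 (Mesp1 against Foxa2), 100 and 9 (Mesp1 and Foxa2 against Sox2, E6.75) and 7 and 13 (changes between stages); counts of members called stayed within 1.5 times. No paired analysis was possible for E7.5 against E6.75 because the stages share no replicate numbers. Leaving out each E6.75 library in turn gave 0 to 3 members and 85 to 323 genes for Mesp1 against Sox2 at E6.75, and 0 to 1 members for its change between stages. The planned second count-model tool was not run. Depth limited the tests to 10 to 22 of 53 members.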

Other observations

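Itga5, the α chain of the fibronectin receptor, was too sparse to pass the filter in any comparison as set: 56 molecules were counted at E6.75, of which 21.4% lay in the visceral endoderm gate, with its 4.22% of transcripts. Lama3, a laminin α chain of stratified epithelia, had 76.9% of its 65 E6.75 molecules in the Sox2 gate, with 55.7% of transcripts, and a median of 0.0358 per 10000 over E6.75 libraries against 0 at E7.5. Col9a3 and Col9a2, partners of Col9a1 in a fibril-associated collagen, had 55.4% of 148 and 60.6% of 66 E6.75 molecules in the same gate, near its share of all transcripts. None of these values carries a test.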
